A study of Mus musculus with 6 samples.

Results

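The genes described here are 6 genes whose transcript levels in white fat are known to vary with the gain of fat mass: Mest, Sfrp5, Sfrp4, Sfrp1, Npr3 and Bmp3. They were taken by NCBI gene identifier from a table of read counts, and all 6 were found among its 19790 identifiers. The RNA came from gonadal white adipose tissue, a visceral fat depot of the abdomen called gWAT here, of wild-type C57BL/6 mice given either a normal chow diet (NCD) or a high-fat diet (HFD) over 8 weeks. Each diet had 3 libraries, taken here as 3 mice. The labels put the mice at 6 weeks of age when the diets began and the study's methods at 8 weeks, and the methods describe males only. The labels name no engineered allele and no other treatment. A table of whole-tissue counts holds all cells of the pad together, so fewer cells of a type and less RNA per cell cannot be told apart.

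White fat pads grow on a rich diet by enlarging existing adipocytes and by recruiting new ones from stromal progenitors, and Wnt and bone morphogenetic protein (BMP) signals both act on that recruitment. The secreted frizzled-related proteins (SFRPs) resemble the Wnt-binding part of the frizzled receptors and can bind Wnt ligands outside the cell. BMP3 is a secreted member of the BMP family that opposes other BMPs, NPR3 is the receptor that removes natriuretic peptides from the tissue, and MEST is an enzyme-like protein of the endoplasmic reticulum made from the paternal copy of an imprinted gene.

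Depth lay between 49575113 and 66360046 counts per library. All 10 adipocyte markers were present in every mouse, but the 6 libraries differed in RNA of another organ. Genes for seminal vesicle secretions took 58.6%, 11.2% and 2.30% of the counts in NCD replicates 1, 2 and 3, and at most 0.121 CPM (counts scaled to a common library total) on HFD, so their amount cannot be told apart from the diet. NCD replicate 1 stood farthest apart. Its summed adipocyte markers reached 4239 CPM, against 36172 and 49555 CPM in the other NCD mice and 18310 to 23452 CPM on HFD, and its summed smooth muscle markers reached 3397 CPM against 275 to 839 CPM in the other 5 mice. Epithelial markers were at 991 CPM in this mouse and at 32.6 to 204 CPM in the others. Epididymal markers stayed at or below 2.38 CPM in every mouse. Levels below are therefore scaled by TMM, a trimmed mean that sets aside the genes that differ most between libraries, and the change of each of the 6 genes is given with and without NCD replicate 1.

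Of the 6 genes, 3 were higher on HFD and none was lower. Sfrp5, Sfrp4 and Bmp3 rose 160-fold, 16.6-fold and 10.3-fold by the diet means, whereas Mest, Npr3 and Sfrp1 did not pass the test (edgeR's quasi-likelihood test, adjusted p under 0.05 over 15241 genes), and this split was the same under each scaling tried, with no filter on low counts and with DESeq2. Across all genes tested, 5.58% were called higher and 1.90% lower. Without NCD replicate 1 the same 3 genes were called, beside 10.7% of all genes higher and 10.1% lower. In Sfrp5, Sfrp4 and Bmp3 the lowest HFD mouse lay above the highest NCD mouse, a separation of the diets in one direction or the other that 39.2% of all tested genes showed. All 6 genes passed the filter on low counts. Leaving out any 1 of the other 5 mice ended the calls, with an adjusted p of the 3 genes between 0.0548 and 0.132 by edgeR, and then 2 to 7 genes of the whole table were called.

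**Figure D1:**
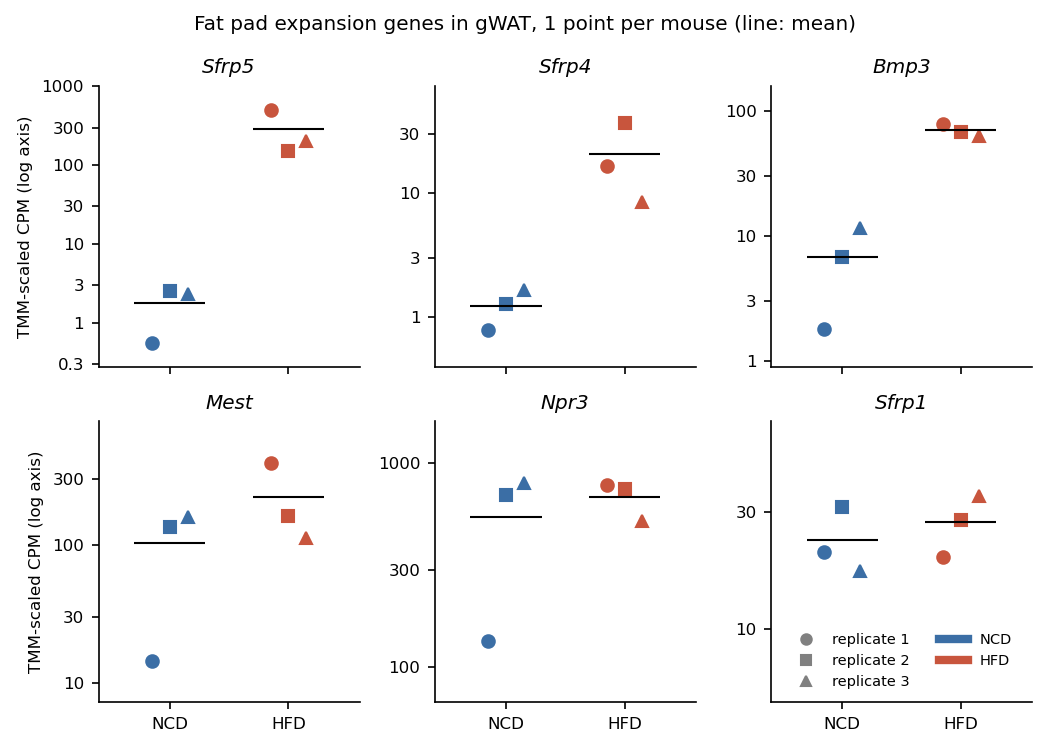
TMM-scaled CPM of each gene (y axis, logarithmic) in the 3 NCD and 3 HFD mice, with 1 point per mouse, the shape giving the replicate and the line the mean. The diets lie apart for Sfrp5, Sfrp4 and Bmp3 and overlap for Mest, Npr3 and Sfrp1, and NCD replicate 1 (circle) is the lowest mouse in every panel but that of Sfrp1.

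The SFRP genes are taken first. Sfrp5 encodes an antagonist of Wnt ligands that adipocytes secrete as an adipokine, and the gene (NCBI Gene 54612) lies at chr19:42197971-42202252 of GRCm38.p6. In TMM-scaled CPM its level in NCD replicates 1, 2 and 3 was 0.548, 2.53 and 2.31, from 18, 151 and 124 counts. On HFD it was 507, 153 and 202 TMM-scaled CPM, from 29237, 12742 and 12685 counts. All 3 NCD mice were near the bottom of the scale and all 3 HFD mice far above them, and the lowest HFD mouse was 60.5-fold above the highest NCD mouse. The means were 1.79 ± 1.08 on NCD and 287 ± 192 on HFD (SD, n = 3 each), a log2 fold change of 7.30 (SE 0.863, adjusted p = 0.0212 by edgeR). Without NCD replicate 1 it was 6.90 (SE 0.722, adjusted p = 0.00667 by edgeR), or 119-fold by the means. By fitted change Sfrp5 came 9th among the 850 genes called higher. Among the HFD mice it varied 3.32-fold, with replicate 1 the highest.

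Sfrp4, another Wnt-binding member of the family (Gene 20379, chr13:19623175-19632825), was less abundant than Sfrp5 per kilobase of exon in each of the 6 mice, by far on HFD and by less on NCD. It stood at 0.792, 1.27 and 1.66 TMM-scaled CPM on NCD and at 16.6, 36.6 and 8.51 on HFD, and the counts behind these were 26, 76 and 89 on NCD and 956, 3050 and 534 on HFD. The diets did not overlap, with the lowest HFD mouse 5.14-fold above the highest NCD mouse, and HFD replicate 2 was the highest of the mice. The log2 fold change was 4.04 (SE 0.637, adjusted p = 0.0253 by edgeR) and 3.82 without NCD replicate 1 (SE 0.705, adjusted p = 0.0194). HFD replicate 2 also held the most mesothelial marker RNA, with a sum of 676 TMM-scaled CPM over 7 genes. HFD replicates 1 and 3 were at 289 and 222, and NCD replicates 1, 2 and 3 at 383, 204 and 132, so the diets overlapped. The stromal marker RNA was also highest in HFD replicate 2, with 5379 TMM-scaled CPM over 10 genes. Of the mesothelial markers 1 of 7, Msln, was called higher on HFD, and of the stromal markers 1 of 10, Col1a1. Of all tested genes 5.58% were called higher. The part of these cells in the level of Sfrp4 was not tested.

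Sfrp1, a family member expressed in many tissues (Gene 20377, chr8:23411383-23449632), overlapped between diets. Its TMM-scaled CPM was 20.6, 31.4 and 17.2 on NCD and 19.5, 27.7 and 34.6 on HFD. The highest mouse was on HFD and the lowest on NCD, with the means at 23.0 ± 7.45 and 27.3 ± 7.55 (SD, n = 3 each). The log2 fold change was 0.24 (SE 0.309, adjusted p = 0.626 by edgeR), and 0.18 without NCD replicate 1 (adjusted p = 0.726). Among the 6 genes it alone did not have its lowest value in NCD replicate 1.

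**Figure D2:**
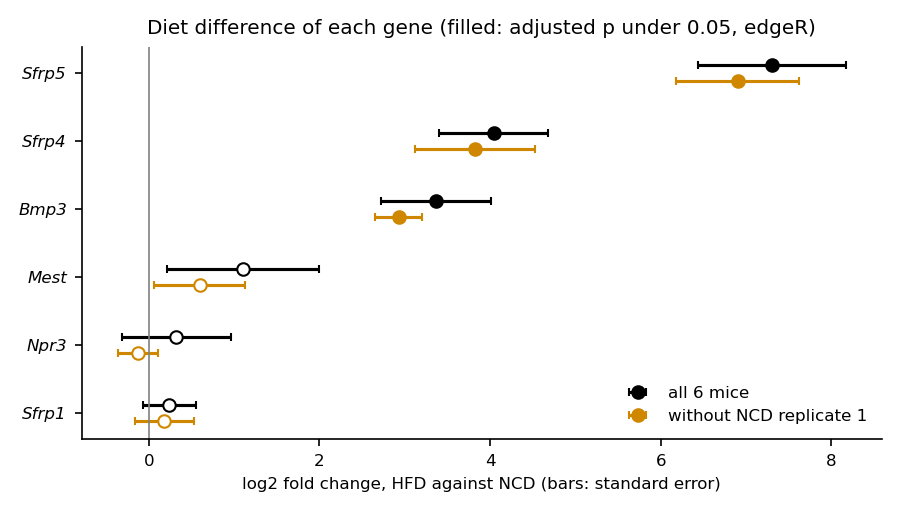
Log2 fold change of HFD against NCD (x axis) for each gene, with its standard error as a bar, from all 6 mice (black) and without NCD replicate 1 (orange), filled where the adjusted p is under 0.05. Sfrp5, Sfrp4 and Bmp3 lie at 7.30, 4.04 and 3.36 with all mice, and Npr3 moves from 0.32 to -0.13 when that mouse is left out.

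Because the 3 SFRP genes behaved differently, the makeup of the family was set out on a scale per kilobase of exon (FPKM, from TMM-scaled CPM). The 5 genes of the family are Sfrp1, Sfrp2, Frzb, Sfrp4 and Sfrp5. Their summed FPKM was 15.2, 13.5 and 13.8 on NCD and 285, 141 and 140 on HFD. The NCD mice were close together (14.2 ± 0.883, SD, n = 3) and every HFD mouse was far above them (189 ± 83.6). NCD replicate 1 is the library richest in seminal vesicle RNA, and the part of that RNA in its sum and shares was not tested. Its share of Frzb was 5.74%, against 0.511% and 0.855% in NCD replicates 2 and 3. Sfrp5 made up 1.90%, 9.84% and 8.78% of the sum on NCD and 93.5%, 57.1% and 76.0% on HFD. In the NCD mice Sfrp2 (60.1%, 34.2% and 59.1%) and Sfrp1 (31.0%, 53.2% and 28.4%) held most of the sum, and on HFD Sfrp1 made up 1.56%, 4.49% and 5.65%, while its own level was within the NCD range or just above. The share of Sfrp5 differed without overlap (6.84 ± 4.31% against 75.5 ± 18.2%, SD, n = 3 each, two-sided exact permutation p = 0.1, the smallest that 3 mice against 3 allow). Sfrp4 kept a share between 1.25% and 6.21% in all 6 mice.

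**Figure D3:**
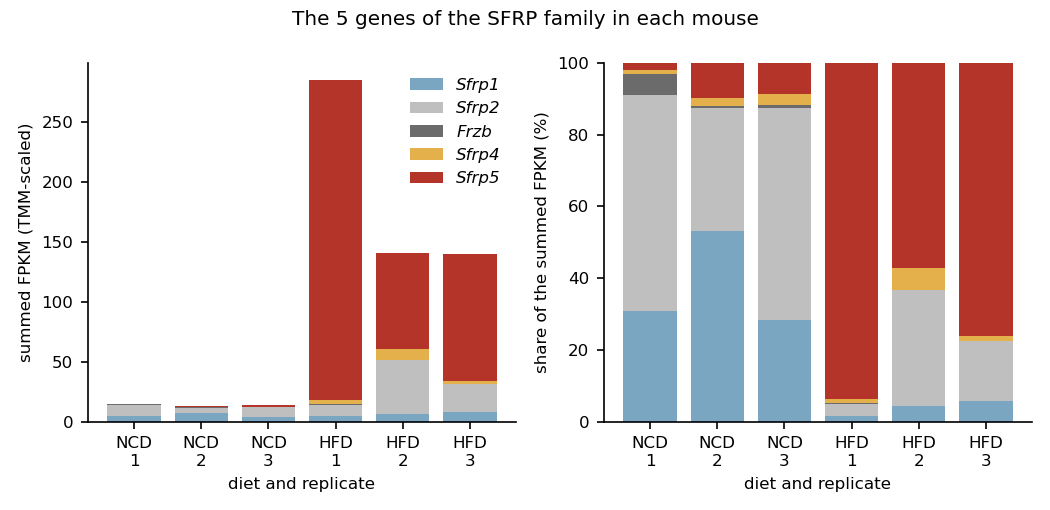
Left, FPKM of the 5 SFRP family genes stacked for each mouse. Right, the same values as percent of each mouse's sum. Sfrp5 goes from at most 9.84% of the sum on NCD to at least 57.1% on HFD.

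The change of the members relative to each other does not depend on scaling between libraries, since both genes are counted in the same library. The log2 ratio of Sfrp5 to Sfrp1 was higher on HFD by 7.16, that of Sfrp4 to Sfrp1 by 3.61, and that of Sfrp5 to Sfrp4 by 3.54. Each of these 3 ratios separated the diets (two-sided exact permutation p = 0.1 for each, adjusted p = 0.1), and without NCD replicate 1 the differences were 6.50, 3.38 and 3.12. The excess of Sfrp5 over Sfrp4 was thus larger in every HFD library than in any NCD library.

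Promoter sequence is shown here for Sfrp5, which rose most, and for Mest, an imprinted gene. Methylation of these promoters was not measured. RefSeq promoter entries on GRCm38.p6 were found for 3 of the 6 genes (Mest, Npr3 and Sfrp5), and the 250 bases before the start are printed 5′ to 3′ with each CpG in capitals. The Sfrp5 stretch is chr19:42202253-42202502 on the minus strand. The Mest stretches are chr6:30733256-30733505 and chr6:30737800-30738049, both on the plus strand and before different starts of the gene.
Sfrp5: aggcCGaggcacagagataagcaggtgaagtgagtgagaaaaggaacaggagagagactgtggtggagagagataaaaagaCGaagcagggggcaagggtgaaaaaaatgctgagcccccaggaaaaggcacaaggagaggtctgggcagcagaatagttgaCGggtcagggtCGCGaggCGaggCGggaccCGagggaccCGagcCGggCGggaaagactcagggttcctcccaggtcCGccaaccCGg
Mest, first start: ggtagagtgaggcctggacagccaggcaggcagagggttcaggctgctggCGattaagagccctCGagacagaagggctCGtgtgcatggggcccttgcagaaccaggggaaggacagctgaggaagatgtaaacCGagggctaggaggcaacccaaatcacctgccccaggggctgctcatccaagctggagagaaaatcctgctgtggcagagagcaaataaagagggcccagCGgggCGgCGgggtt
Mest, second start: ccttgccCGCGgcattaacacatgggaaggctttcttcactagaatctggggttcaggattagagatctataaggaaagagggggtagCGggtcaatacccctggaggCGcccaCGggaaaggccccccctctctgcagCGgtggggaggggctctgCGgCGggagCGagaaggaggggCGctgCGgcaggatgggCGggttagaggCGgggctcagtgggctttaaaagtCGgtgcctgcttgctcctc
The Sfrp5 stretch holds 13 CpG and has a GC content of 59.6%, and 31.5% of the 32851 promoters in the table hold at least as many CpG. The Mest stretches hold 7 and 14 CpG, numbers that 46.3% and 29.4% of all promoters reach, where the median promoter holds 6. The Npr3 entry (chr15:11907372-11907621, minus strand) lies before a start within the annotated gene and also holds 6. Both strands were searched for 4 short motifs that do not overlap in these stretches. The core of the GC box (GGGCGG) occurs once in each of the printed stretches and in 32.7% of all promoters. A form of the site of the TCF/LEF factors of Wnt signalling (CTTTGAT) occurs in none of the stretches and in 3.21% of all promoters. The TATA box (TATAAA), found in 12.4% of all promoters, occurs in none of them either, and the CCAAT box (33.8%) occurs once, in the Npr3 stretch. A match is a description of the letters and not a site shown to be used.

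The other genes of the Wnt pathway are given beside the 5.58% of all tested genes called higher and the 1.90% called lower, and in lists of this size a count of 0 is near that background. Of 15 Wnt ligands in the table, 11 were tested and none was called in either direction with all mice by edgeR (3 at an unadjusted p under 0.05 and 2 by DESeq2), with a median log2 fold change of -0.10 beside -0.08 for all genes. Without NCD replicate 1, of the 12 ligands then tested, only Wnt11 was called, higher by 1.41 on the log2 scale. In that fit 10.7% of all genes were called higher and 10.1% lower. Of the frizzled, LRP and other Wnt receptors, 15 of 18 were tested and none was called by edgeR (2 unadjusted, 2 by DESeq2), and without NCD replicate 1 Fzd3 was called lower (log2 fold change -1.13, adjusted p = 0.0214). Its TMM-scaled CPM was 34.3, 7.78 and 5.90 on NCD, in the order of the seminal vesicle RNA, and 2.95 to 3.28 on HFD. Among the 10 other secreted antagonists, 6 were tested and none was called by edgeR (3 unadjusted, 3 by DESeq2), and without NCD replicate 1 Apcdd1 was called lower (log2 fold change -0.85, adjusted p = 0.0286). Of these, Sfrp2 was at 18.3, 9.25 and 16.4 TMM-scaled CPM on NCD and at 19.7, 90.7 and 47.5 on HFD. Every HFD mouse was above every NCD mouse, but HFD replicate 1 by little (log2 fold change 1.85, SE 0.577, adjusted p = 0.0991 by edgeR, and 2.05, adjusted p = 0.0837, without NCD replicate 1). Frzb, also called Sfrp3, was between 0 and 2.74 TMM-scaled CPM in all mice and did not pass (log2 fold change -2.21, adjusted p = 0.360 by edgeR). The highest value was that of NCD replicate 1, and without this mouse the log2 fold change was -0.31 (adjusted p = 0.885 by edgeR).

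The genes that canonical Wnt signalling is known to induce went in both directions. Of 12 such genes 11 were tested, with 1 called higher and 1 lower by edgeR (6 at an unadjusted p under 0.05, 6 by DESeq2) and a median of -1.37, and 8 of the 12 had their highest level in NCD replicate 1. Without that mouse the median was -0.52, Ccn4 and Ccn5 were called higher, and Axin2 and Znrf3 were called lower. In that fit 10.7% of all genes were called higher and 10.1% lower. Axin2, a negative regulator that is among the most widely used readouts of the pathway, was at 57.5, 56.4 and 65.8 TMM-scaled CPM on NCD and at 11.2, 19.3 and 7.64 on HFD. It was lower in every HFD mouse (log2 fold change -2.24, SE 0.353, adjusted p = 0.0253 by edgeR), and NCD replicate 1 was no outlier here, the value without it being -2.25 (adjusted p = 0.0153). Ccn5, a secreted matricellular protein made by mesenchymal cells of fat, went the other way, from 3.50, 3.06 and 3.70 on NCD to 156, 104 and 185 on HFD. These diets were also far apart, with a log2 fold change of 5.44 (SE 0.287, adjusted p = 0.00399 by edgeR) and 5.47 without NCD replicate 1 (adjusted p = 0.00544).

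Bmp3 varied least among the HFD mice of the 3 genes that rose. The gene (Gene 110075, chr5:98854415-98884053) was at 1.80, 6.81 and 11.6 TMM-scaled CPM in the NCD mice, from 59, 407 and 626 counts, and at 78.7, 67.2 and 63.3 in the HFD mice, from 4541, 5609 and 3973 counts. The HFD mice were close together (69.8 ± 8.00, SD, n = 3) and the lowest of them was 5.44-fold above the highest NCD mouse, whereas the NCD mice ranged widely (6.75 ± 4.93). The log2 fold change was 3.36 (SE 0.647, adjusted p = 0.0375 by edgeR). Without NCD replicate 1, the lowest mouse, it was 2.93 with a smaller error (SE 0.276, adjusted p = 0.00628), or 7.56-fold by the means. The annotation places the long noncoding RNAs Gm34563 and Gm42123 over parts of Bmp3, and neither has a row in the table.

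The other BMP genes are also read against the 5.58% of all genes called higher and 1.90% called lower. Of 12 BMP and related ligands 8 were tested and 1 was called, Gdf6, which was higher on HFD. Its TMM-scaled CPM was 0.0609, 0.151 and 0.223 on NCD and 1.98, 3.12 and 1.08 on HFD (log2 fold change 3.77, SE 0.646, adjusted p = 0.0290, and 3.47, adjusted p = 0.0188, without NCD replicate 1), a low level that still separated the diets. Bmp4, a ligand that commits stromal cells to the adipocyte lineage, was at 7.99 to 19.2 on NCD and 8.35 to 15.2 on HFD (log2 fold change -0.06, adjusted p = 0.937, and 0.44, adjusted p = 0.306, without NCD replicate 1). None of the 9 BMP and activin receptors was called by edgeR (3 unadjusted, 3 by DESeq2), among them Acvr2b, a type II receptor to which BMP3 binds (log2 fold change -0.46, adjusted p = 0.206). Of 15 antagonists 13 were tested and 1 was called higher, the follistatin-like gene Fstl1, at 75.8, 90.1 and 87.0 on NCD and 275, 356 and 241 on HFD. These values lie well apart (log2 fold change 1.79, SE 0.210, adjusted p = 0.0212, and 1.73, adjusted p = 0.00786, without NCD replicate 1). None of 10 SMAD and ID genes, the intracellular effectors and targets, was called by edgeR (3 unadjusted, 2 by DESeq2), and their median was -0.49. Without NCD replicate 1, which had the highest level in 9 of these 10, it was -0.14. Leaving out that mouse also added calls by edgeR, with Acvrl1 and Fstl3 higher on HFD and Gdf10, Bmpr1b and Smad9 lower. These stand beside 10.7% of all genes called higher and 10.1% called lower without that mouse. Bmpr1b and Smad9 fell over NCD replicates 1, 2 and 3 in the order of the seminal vesicle RNA. Smad9 was at 48.8, 5.15 and 1.88 TMM-scaled CPM on NCD and at 0.255 to 0.683 on HFD. The part of that RNA in these calls was not tested.

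Npr3 was the most abundant of the 6 genes on NCD, and its level per library did not follow diet. The gene (Gene 18162, chr15:11839896-11907837) was at 134, 701 and 804 TMM-scaled CPM on NCD and at 786, 748 and 518 on HFD. The diets overlapped, with NCD replicate 1 the lowest mouse, HFD replicate 3 the next, and the other 4 mice, from both diets, at 701 to 804. The log2 fold change was 0.32 (SE 0.640, adjusted p = 0.758 by edgeR), and without that mouse it changed sign to -0.13 (SE 0.236, adjusted p = 0.731). A noncoding gene, Gm5144, overlaps Npr3 over 866 bases with 20 to 158 counts per library, against at least 4388 counts of Npr3.

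The signalling receptors for the peptides that NPR3 removes were measured in the same mice. Npr1, the guanylyl cyclase receptor for atrial and brain natriuretic peptides, which raises lipolysis in fat cells through cyclic GMP, was at 47.9, 61.2 and 69.0 TMM-scaled CPM on NCD and at 88.1, 110 and 91.5 on HFD. Every HFD mouse was above every NCD mouse, and the log2 fold change of 0.70 (SE 0.189) missed the threshold with all mice (adjusted p = 0.0741) and passed it without NCD replicate 1 (0.58, adjusted p = 0.0437). Npr2, the receptor for C-type natriuretic peptide, overlapped between diets (log2 fold change 0.13, adjusted p = 0.854). Of the 11 genes of the natriuretic peptide system in the table, 8 were tested and none was called with all mice by edgeR (1 unadjusted, 1 by DESeq2). Across all tested genes 5.58% were called higher and 1.90% lower, so a count of 0 among 8 genes is near that background. Nppc, which encodes C-type natriuretic peptide, had 0 counts in every library.

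Mest spread widely among the mice of both diets. The gene (Gene 17294, chr6:30733506-30748466) was at 14.6, 136 and 161 TMM-scaled CPM on NCD and at 395, 162 and 112 on HFD. HFD replicate 1 was the highest and NCD replicate 1 the lowest, and the other 4 mice, from both diets, lay between 112 and 162. The means were 104 ± 78.2 and 223 ± 151 (SD, n = 3 each), with a log2 fold change of 1.10 (SE 0.891, adjusted p = 0.437 by edgeR) and 0.60 without NCD replicate 1 (SE 0.535, adjusted p = 0.459). Without HFD replicate 1, the highest mouse, it was 0.41 (adjusted p = 0.815). Copg2, a neighbouring gene for a coat protein of transport vesicles, overlaps Mest over 913 bases and had 1916 to 3532 counts per library. The labels name a stranded library kit, but the sources used here do not say whether counting used strand, so reads of that overlap cannot be told apart. Copg2 had a log2 fold change of -0.58 (SE 0.137, adjusted p = 0.0567 by edgeR), with no mouse of one diet within the range of the other, and without NCD replicate 1 it was called lower (-0.59, adjusted p = 0.0277).

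Mest belongs to a network of imprinted genes that are known to be expressed together in growing tissues. Of the 17 other genes of that list all were tested, with 2 called higher on HFD and none lower by edgeR (6 unadjusted, 6 by DESeq2). Their median was 0.22, and of all tested genes 5.58% were called higher and 1.90% lower. Peg3, a paternally expressed zinc finger gene, went from 3.56, 7.19 and 8.88 TMM-scaled CPM on NCD to 69.7, 56.5 and 52.8 on HFD. The HFD mice were all well above the NCD mice (log2 fold change 3.19, SE 0.366, adjusted p = 0.0212 by edgeR, and 2.91, adjusted p = 0.00544, without NCD replicate 1). Peg10, a paternally expressed gene derived from a retrotransposon, was at 3.53, 9.52 and 7.35 on NCD and at 137, 37.5 and 48.8 on HFD (log2 fold change 3.45, SE 0.644, adjusted p = 0.0357, and 3.15, adjusted p = 0.0259, without NCD replicate 1). In Peg10, as in Mest and Sfrp5, HFD replicate 1 was the highest of the mice. Igf2, the paternally expressed growth factor gene, was lower on HFD without NCD replicate 1 only (log2 fold change -1.19, adjusted p = 0.0418, and -0.99, adjusted p = 0.128, with all mice). Without that mouse 6 of the 17 were called higher and 1 lower, beside 10.7% and 10.1% of all genes. Of the 3 neighbours of Mest tested, none was called with all mice by edgeR (2 unadjusted, 2 by DESeq2), and without NCD replicate 1 Klf14 was called higher (log2 fold change 1.47, adjusted p = 0.0166) beside the call of Copg2.

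**Figure D4:**
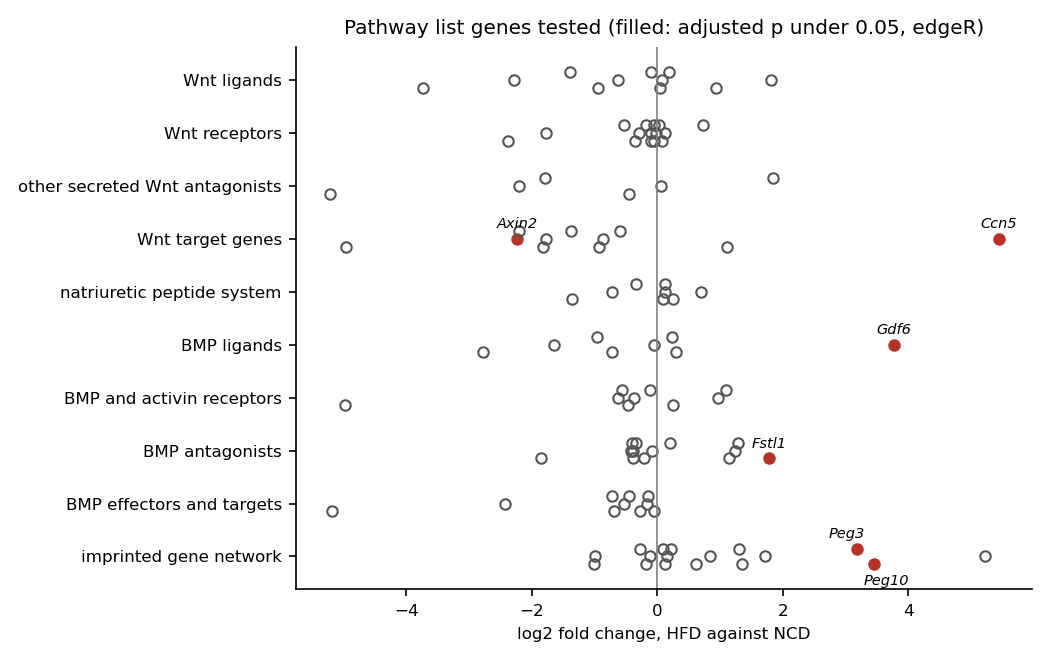
Log2 fold change of HFD against NCD (x axis) of the tested genes in 10 lists around the members (rows), from the fit with all 6 mice, filled and named where the adjusted p is under 0.05. Filled points are Ccn5, Gdf6, Fstl1, Peg3 and Peg10 on the right and Axin2 on the left.

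Since the amount of fat cell RNA differed between libraries, the counts of each gene were also set against the counts of cell type markers in the same library. Per 1000 counts of 10 adipocyte markers, Npr3 had 15.6, 19.8 and 17.4 counts on NCD and 38.8, 40.7 and 35.8 on HFD. On this scale NCD replicate 1 lay with its diet and the diets did not overlap, a log2 difference of 1.13. Mest was also apart on this scale, at 1.70, 3.83 and 3.48 counts on NCD and 19.5, 8.83 and 7.75 on HFD, a log2 difference of 1.96. Sfrp5, Bmp3 and Sfrp4 differed by 7.87, 4.19 and 4.32 without overlap. Sfrp1 differed by 0.71 with overlapping diets, at 2.40, 0.887 and 0.371 counts on NCD and 0.962, 1.51 and 2.39 on HFD. Its overlap came from NCD replicate 1 alone, and without that mouse the log2 difference was 1.40. For the 5 genes without overlap the two-sided exact permutation p was 0.1 each (0.12 adjusted over the 6 genes). The share of all genes without overlap on this scale was not taken, and in TMM-scaled CPM it was 39.2%.

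The adipocyte markers were themselves not even between diets. Cfd, Retn and Lpl, the genes of adipsin, resistin and lipoprotein lipase, had the lowest fold changes of the 10 (log2 fold changes -3.02, -2.32 and -1.48). Without NCD replicate 1, 5 of the 10 markers were called lower on HFD, beside 10.1% of all genes. With those 3 left out, a choice made after seeing the values, Npr3 had 37.5, 50.9 and 42.1 counts per 1000 marker counts on NCD and 62.0, 51.7 and 46.4 on HFD. These overlap, and the log2 difference was 0.30. Mest still did not overlap, narrowly, with 9.86 as the highest NCD value and 10.05 as the lowest HFD value. The 7 markers kept were not even either, as Plin1 and Lipe were called lower on HFD without NCD replicate 1 (log2 fold change -1.17 and -0.95, adjusted p = 0.0234 and 0.0448 by edgeR). Bmp3 was at 0.505, 0.494 and 0.610 on NCD and 6.21, 4.64 and 5.67 on HFD, so that NCD replicate 1 was not low on this scale either. Sfrp5 and Sfrp4 kept differences of 7.03 and 3.49.

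**Figure D5:**
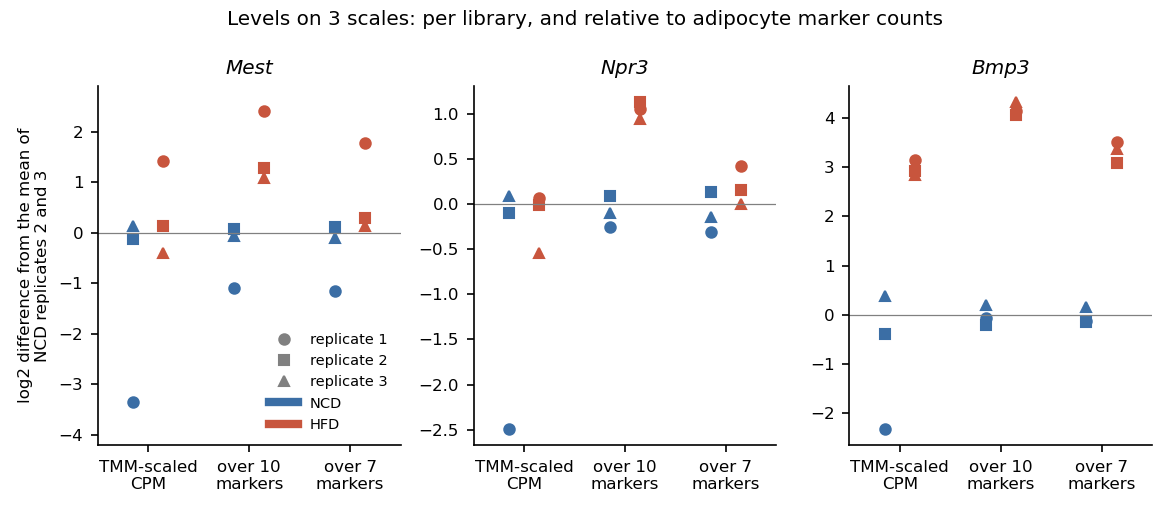
Log2 level of Mest, Npr3 and Bmp3 in each mouse (points, shape giving the replicate), as TMM-scaled CPM and relative to the counts of 10 or 7 adipocyte markers of the same library, each set to 0 at the mean of NCD replicates 2 and 3. The low NCD replicate 1 of the first scale moves towards its diet on the other scales, and Npr3 separates the diets only with all 10 markers.

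Set against 10 stromal markers instead, Sfrp5, Sfrp4 and Bmp3 were again apart, by log2 differences of 6.34, 2.80 and 2.67, while Mest (0.43), Npr3 (-0.39) and Sfrp1 (-0.81) overlapped between diets. The summed stromal markers were at 1489, 2687 and 2207 TMM-scaled CPM on NCD and 4167, 5379 and 3608 on HFD. Macrophage markers also moved with diet, from 361 to 868 TMM-scaled CPM on NCD to 2222 to 3543 on HFD. Of these 8 markers, 4 were called higher, and all 8 without NCD replicate 1, beside 5.58% and 10.7% of all genes. Of the 10 adipocyte, 6 endothelial and 8 smooth muscle markers none was called with all mice by edgeR. At an unadjusted p under 0.05 there were 2, 0 and 7 of them, and DESeq2 called the same numbers. In the edgeR fit 2 of 12 epithelial and 9 of 11 seminal vesicle genes were called lower on HFD, beside 1.90% of all genes. The part of these cells in the levels of the 6 genes was not tested.

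On the FPKM scale the order of the members by mean log2(FPKM + 0.1) over the 6 mice was Npr3, Mest, Sfrp5, Sfrp1, Bmp3 and Sfrp4. Npr3 exceeded Mest in 5 of 6 mice by 0.83 ± 0.70 (SD, two-sided exact sign-flip p = 0.0625, 0.156 adjusted over 5 neighbour pairs), and Bmp3 exceeded Sfrp4 in 6 of 6 by 1.13 ± 0.80 (exact p = 0.0312, the smallest that 6 mice allow, adjusted p = 0.156). After adjustment no pair of neighbours passed a threshold of 0.05. The pairs between them changed places with diet. Sfrp5 was below Mest by 4.78 on NCD and above it by 0.92 on HFD, and it was below Sfrp1 by 2.53 on NCD and above it by 4.42 on HFD. In ranks, Npr3 was first and Mest second in every NCD mouse with Sfrp5 at rank 4 or 5, and on HFD Sfrp5 was first in replicates 1 and 3 and second to Npr3 in replicate 2. The FPKM of Sfrp5 went from 0.288, 1.33 and 1.21 to 267, 80.4 and 106, while that of Npr3 was 18.4, 96.8 and 111 on NCD and 108, 103 and 71.5 on HFD.

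Across the 6 libraries, which share diet and the content of other RNA as sources of likeness, the members fell into patterns. Sfrp5 and Bmp3 had a Pearson r of 0.968 (log2 TMM-scaled CPM), Sfrp5 and Sfrp4 of 0.931, and Sfrp4 and Bmp3 of 0.927, and without NCD replicate 1 these were 0.977, 0.901 and 0.933. Mest and Npr3 had an r of 0.950, which fell to 0.611 without that mouse. Sfrp1 had an r of at most 0.289 with any other member, and without that mouse its r was -0.789 with Npr3 and -0.645 with Mest. Among all other tested genes, those most like Sfrp5 were Tbxas1, Zfyve28 and Gcnt1 (r from 0.998 to 0.999), and all 3 were called higher on HFD. Those most like Sfrp4 were Gdf6, Efemp1 and Lgals7, the first and last of them called higher, and those like Bmp3 included Serpinb9 and Angptl4, both called higher. Mest was most like Bbs7, Fap and Btnl9, Npr3 most like Slc35b4, Zbtb46 and Klhl22, and Sfrp1 most like Grwd1, Zap70 and Mybbp1a, and none of these 9 genes was called. Angptl4, a secreted inhibitor of lipoprotein lipase, was at 53.8, 156 and 211 TMM-scaled CPM on NCD and 789, 757 and 907 on HFD (log2 fold change 2.54, SE 0.515, adjusted p = 0.0425). These likenesses rest on 6 points each and are given as a description. The genes were picked by their likeness to a member over the same libraries, so whether they were called follows largely from that choice.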

How the data were processed

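RNA from 6 mouse gWAT libraries, 3 per diet, was prepared with a TruSeq mRNA kit (the labels name a stranded kit) and sequenced on a NovaSeq instrument. What the authors deposited are unnormalized read counts for each gene, with a column for every library. The submitters' processing notes name bcl2fastq 2.20.0, Trimmomatic, HISAT2 2.1.0, StringTie 1.3.4d and DESeq2 and the builds mm10 and GRCm38, without roles or order. The sources used here do not state whether reads were counted by strand. The column of HFD replicate 3 is numbered 4, and 0 columns were left without a sample. Groups came from the labels.

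Identifiers were paired with symbols through RefSeq on GRCm38.p6 (19742 of 19790, and the other 48 held 0.629% of the counts). The fit was made in edgeR 4.0.16 under R 4.3.3. Genes passed filterByExpr at a minimum count of 10 and a minimum total of 15, TMM factors set the scale, and glmQLFTest gave p-values that were adjusted by Benjamini-Hochberg for 15241 genes (threshold 0.05). SE is the log2 fold change over the root of F. FPKM used exon unions of GENCODE vM21 basic transcripts. Ratios and shares were compared by exact permutation tests, levels within a mouse by exact sign-flip tests on log2(FPKM + 0.1). Python 3.11.15 was used, and the fit was tested on simulated data. With these depths, counting error is small beside the spread between mice, except for genes with few counts. No source says that the samples came from separate cages or litters, so p-values measure the spread between these samples.

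The members and the gene lists were chosen with earlier results of these data known. The genes named are the 6 members, genes of the pathway lists past the threshold (up to 4 each), a fixed set of partner genes, the 3 genes most correlated with each member (1 of those for Bmp3 is not reported here) and marker genes. List genes called without NCD replicate 1 only (such as Wnt11) were named after their values were seen. Alternatives were no filter, median-of-ratios scaling, TMM without seminal vesicle genes, total counts alone, DESeq2 1.42.0, a replicate block, leaving out each mouse, another FPKM pseudocount (1) and transcript length, and, chosen after seeing the data, fewer adipocyte markers.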

Additional observations from a re-analysis of the deposited data

How the results depend on the processing

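Sfrp5, Sfrp4 and Bmp3 were the members past the threshold with no filter, under median-of-ratios scaling, TMM without the seminal vesicle genes, total counts alone and DESeq2, and without NCD replicate 1. Total counts alone moved the median log2 fold change of all genes from -0.08 to 0.45. The 1139 genes past the threshold (4524 at an unadjusted p under 0.05) became 3904 with DESeq2, 2153 of them higher and 1751 lower (37 genes had no adjusted p), and 803 with no filter. Leaving out 1 mouse gave 2 to 3234 genes and 0 to 3 members. The highest number came without NCD replicate 1 (1665 higher, 1569 lower), and without any other mouse no member passed. The log2 fold change then ranged from 6.61 to 7.62 for Sfrp5, 3.35 to 4.42 for Sfrp4, 2.93 to 4.02 for Bmp3, 0.41 (without HFD replicate 1) to 1.58 for Mest, 0.047 to 0.53 for Sfrp1 and -0.13 to 0.72 for Npr3. With the replicate number as a block 12 genes and 0 members passed by edgeR (3 members at an unadjusted p under 0.05). The log2 fold changes were 7.20 for Sfrp5 (adjusted p = 0.0675 by edgeR), 3.88 for Sfrp4 (0.0727) and 3.66 for Bmp3 (0.0847). Same-numbered samples did not deviate together from their diet means (correlations -0.056, -0.046 and 0.0097). The NCD deviations include seminal vesicle RNA that the HFD libraries nearly lacked, so these correlations cannot show whether the numbers pair the mice. The excess of Sfrp5 over Sfrp1 within a mouse (0.94 in log2 FPKM) ranged from -0.042 to 1.86 with 1 mouse left out, the lowest without HFD replicate 1. Relative to stromal markers the diet difference ranged from -0.44 (without NCD replicate 1) to 1.01 for Mest, -0.11 without HFD replicate 1, and from -0.99 to 0.024 for Npr3. Relative to 7 adipocyte markers that of Sfrp1 was -0.13 in place of 0.71. The cause of these changes was not tested.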
